A study of Mus musculus with 18 samples.

Results

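Untreated bone marrow macrophages of both genotype labels were compared: 3 libraries labelled as Smad1 knockout against 3 labelled as floxed. The knockout-labelled mice are given as Smad1 fl/fl with LyzM-Cre (MyS1KO), and the floxed-labelled mice as Smad1 fl/fl without a Cre. All groups therefore carry loxP-flanked Smad1 alleles, and the Cre is driven from Lyz2, the lysozyme M gene of myeloid cells. The Cre thus comes with an altered Lyz2 allele, and the deletion depends on the share of cells in which the Cre has acted. The series holds 18 libraries of 6 groups, since 3 libraries of each label were also given TGF-β1 at 10 ng/ml or BMP4 at 50 ng/ml for 4 h. Tibial marrow of mice aged 2 to 3 months was grown with CSF-1 at 12 and then 120 ng/ml, and serum was withdrawn for about 16 h before the cells were collected. For all groups the culture is also given with serum at 15% and a WEHI-3 supplement at 10%, in steps of 24 h and 48 h. Of the 22046 protein-coding genes in the deposited table, 12035 passed the filter on low counts, and these genes are described here. Polyadenylated RNA was sequenced. The labels do not state that libraries of 1 group came from different animals or dishes. Each p-value sets a difference against the spread within groups over all 18 libraries, which may be technical.

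Smad1 is a transcription factor that receptors for bone morphogenetic proteins (BMPs) phosphorylate. It then joins Smad4, enters the nucleus and raises genes such as Id1, Id2, Id3, Smad6 and Smad7, of which the Smads feed back as inhibitors. TGF-β receptors act mainly through Smad2 and Smad3 and, in several cell types, also through Smad1. Macrophages make and answer to ligands of both branches, and the comparison of untreated cells asks what the label changes before any ligand is added.

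The untreated libraries carried the identity of macrophages, and their Lyz2 levels went against the labels. All levels below are in CPM, the read counts of a library brought to one total after TMM adjustment. None of the 20 macrophage markers was under 1 CPM, and Csf1r, the CSF-1 receptor, was at 4530, 4480 and 4700 CPM in knockout-labelled libraries 1 to 3 and at 4080, 4610 and 4400 CPM in floxed-labelled libraries 1 to 3. In that order, Lyz2 was at 15100, 17300 and 15700 CPM in knockout-labelled libraries and at 62.1, 9760 and 9680 CPM in floxed-labelled ones. The only floxed-labelled library with almost no Lyz2 was therefore number 1, and the knockout-labelled mean was 1.65 times the mean of the other two. The floxed-labelled libraries numbered 1 were also low with TGF-β1 (37.6 CPM) and with BMP4 (74.3 CPM). The LyzM-Cre allele is an insertion that disrupts Lyz2, so a lower Lyz2 level would be looked for in the knockout-labelled libraries, and the groups are named here by label only. The label difference of Lyz2 was 1.30 on the log2 scale (SE 1.34, edgeR adjusted p = 0.677). In the fit of 15 libraries without the floxed-labelled ones numbered 1 it was 0.71, with an edgeR adjusted p of 3.04e-05. Those libraries stand apart by their Lyz2 level, so leaving them out does not give a fair test of Lyz2 itself.

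Smad1 (ENSMUSG00000031681, GRCm38 chr8:79338395-79399518, minus strand), the gene named in the labels, was not called different. Its levels were 26.8, 26 and 26 CPM in knockout-labelled libraries against 30, 30.8 and 31.1 CPM in floxed-labelled libraries. All knockout-labelled values lay below all floxed-labelled ones, by 0.22 on the log2 scale (SE 0.08, edgeR adjusted p = 0.13). Counts over the whole gene may include transcripts that remain after an exon is cut out, so this level does not measure the loss of the protein, which the design text says was seen on western blots.

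Lyz1, the neighbouring copy that in mice codes for the lysozyme of Paneth cells, was called lower in the knockout-labelled libraries. Its levels were 5.14, 5.25 and 5.53 CPM against 9.34, 9.91 and 13 CPM, with no overlap, a log2 difference of -1.01 (SE 0.22) and an edgeR adjusted p of 0.0254. The call was lost without knockout-labelled library 1, knockout-labelled library 3 or floxed-labelled library 3, where the edgeR adjusted p reached 0.114. Both starts are printed because the copies are so alike around them. The windows below run from 100 bases before to 50 bases after the annotated start, on the minus strand of GRCm38.p6 as given by RefSeq, at chr10:117292819-117292968 for Lyz1 and chr10:117282223-117282372 for Lyz2. Capitals mark the 9 of 150 bases that differ, 8 of them before the start, and the windows are 94% identical.
Lyz1: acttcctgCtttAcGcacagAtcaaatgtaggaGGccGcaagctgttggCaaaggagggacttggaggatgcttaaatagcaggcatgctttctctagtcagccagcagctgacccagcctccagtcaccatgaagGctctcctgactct
Lyz2: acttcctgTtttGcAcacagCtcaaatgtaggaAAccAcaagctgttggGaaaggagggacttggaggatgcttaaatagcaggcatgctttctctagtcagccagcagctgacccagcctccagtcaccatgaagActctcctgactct
Lyz1 did not follow Lyz2 among the floxed-labelled libraries. Library 1, with Lyz2 at 62.1 CPM, had Lyz1 at 9.34 CPM, and library 2, with Lyz2 at 9760 CPM, had it at 9.91 CPM. The knockout-labelled libraries had the most Lyz2 and the least Lyz1.

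Summed markers of several other cell types lay lower in the knockout-labelled libraries. Summed levels of 16 monocyte markers ran from 1270 to 1570 CPM in knockout-labelled libraries and from 1550 to 1860 CPM in floxed-labelled libraries, and those of 17 neutrophil markers from 397 to 431 CPM against 462 to 494 CPM. The largest neutrophil member was Csf3r, at 237, 235 and 219 CPM against 239, 284 and 230 CPM, which overlapped. Sums of 14 erythroid and megakaryocyte markers, 9 of them under 1 CPM, were 161 to 215 CPM against 230 to 259 CPM. Most of that sum was Pf4 alone, at 187, 151 and 205 CPM against 248, 219 and 249 CPM. Of the 6 tested members of that list, 3 were higher and 3 lower in the knockout-labelled libraries (median log2 0.08). For 18 dendritic cell markers, where the labels overlapped, the sums were 779 to 835 CPM against 799 to 984 CPM. Fibroblast and stromal markers summed to 5.74 to 8.86 CPM against 9.2 to 10.5 CPM, and 12 of the 14 stayed under 1 CPM. Neutrophil, erythroid and fibroblast sums did not overlap between the labels, while monocyte sums overlapped slightly. No monocyte, neutrophil, erythroid or fibroblast marker was called, against 2.27% of all protein-coding genes tested. Mast cell markers (11 of 12 under 1 CPM, 4 at 0 in every untreated library) and lymphoid markers (15 of 17 under 1 CPM, 2 at 0) were low. In these bulk libraries, fewer cells of a type and less RNA per cell cannot be told apart.

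Of the 12035 protein-coding genes, 273 (2.27%) were called at an edgeR adjusted p under 0.05. In the knockout-labelled libraries 115 (0.956%) were higher and 158 (1.31%) lower. The differences were small: 251 of the 273 (91.9%) were under 1.5-fold, while 11 rose and 2 fell by 2-fold or more. The median log2 difference was 0.26 among genes called higher, -0.26 among genes called lower and -0.01 over all protein-coding genes tested. In all 273 the 3 knockout-labelled values lay entirely on one side of the 3 floxed-labelled values, which was so for 2422 (20.1%) of all protein-coding genes tested. At an unadjusted p under 0.05 there were 2116 genes.

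The number of calls rested on single libraries. It was 15, 516 and 23 without knockout-labelled library 1, 2 or 3, and 53, 172 and 106 without floxed-labelled library 1, 2 or 3. Each of those 6 fits gave all 273 genes the same sign as the full fit. No gene of the 273 overlapped between the labels, so leaving out 1 library could hardly change a sign and does not test it. Only 9 of the 273 were called in every one of the 6. With the 6 untreated libraries alone, which leave few degrees of freedom for the spread, 12 protein-coding genes were called, and without the floxed-labelled libraries numbered 1 the count was 27.

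Genes called higher were long and genes called lower were short. The median exonic length was 10464 bases (interquartile range 6979 to 15570.5) among genes called higher, 1852 bases (1261.5 to 3182.75) among genes called lower and 4370 bases over all protein-coding genes tested. When the genes were cut by length into 5 bins of 2407, the shortest bin (45 to 2432 bases) held 3 genes called higher and 95 called lower, and its median log2 difference was -0.11. The longest bin (7427 to 123179 bases) held 82 called higher and 4 called lower, with a median of 0.07. The medians of the bins in between were -0.05, -0.01 and 0.03 from shorter to longer, so they climbed in step with length. Across genes, which are not independent replicates, Spearman's rho between length and the log2 difference was 0.343.

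**Figure D1:**
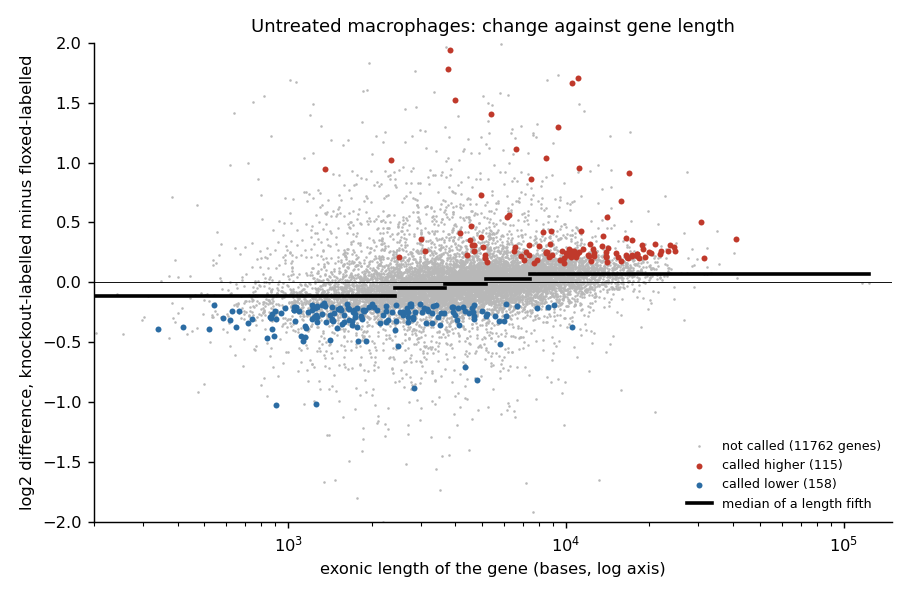
Log2 difference between knockout-labelled and floxed-labelled untreated libraries (vertical) against exonic length in bases (horizontal, log axis), 1 point per protein-coding gene tested, with genes called higher in red, genes called lower in blue, other genes in grey and the median of each of the 5 length bins as a black line. The red points lie mostly to the right and the blue points mostly to the left, the medians climb from -0.11 to 0.07, and 19 genes lie outside the plotted range.

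The same gradient separated the libraries themselves. In each library the median deviation of the longest bin from the mean of all libraries, minus that of the shortest bin, was 0.13, 0.01 and 0.13 on the log2 scale in knockout-labelled libraries and -0.08, -0.08 and -0.10 in floxed-labelled ones. Knockout-labelled library 2 was thus the nearest to the floxed-labelled libraries, though it did not overlap them. Other properties differed too. Total counts were 16166856, 16533837 and 15989866 against 23086927, 21233858 and 18565040. The share of counts in ribosomal protein genes was 2.49%, 2.70% and 2.53% against 3.03%, 2.99% and 2.96%. Genes of the annotation class TEC, transcripts that await experimental support, took 0.139%, 0.116% and 0.121% against 0.0953%, 0.101% and 0.0942%. For each of these 4 properties the labels did not overlap, and the 2-sided exact permutation p was 0.1, the smallest that 3 against 3 can give. The mitochondrial share overlapped (1.06% to 1.13% against 1.12% to 1.19%, exact permutation p = 0.3). These properties move with the label and cannot be told apart from it in the untreated libraries.

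**Figure D2:**
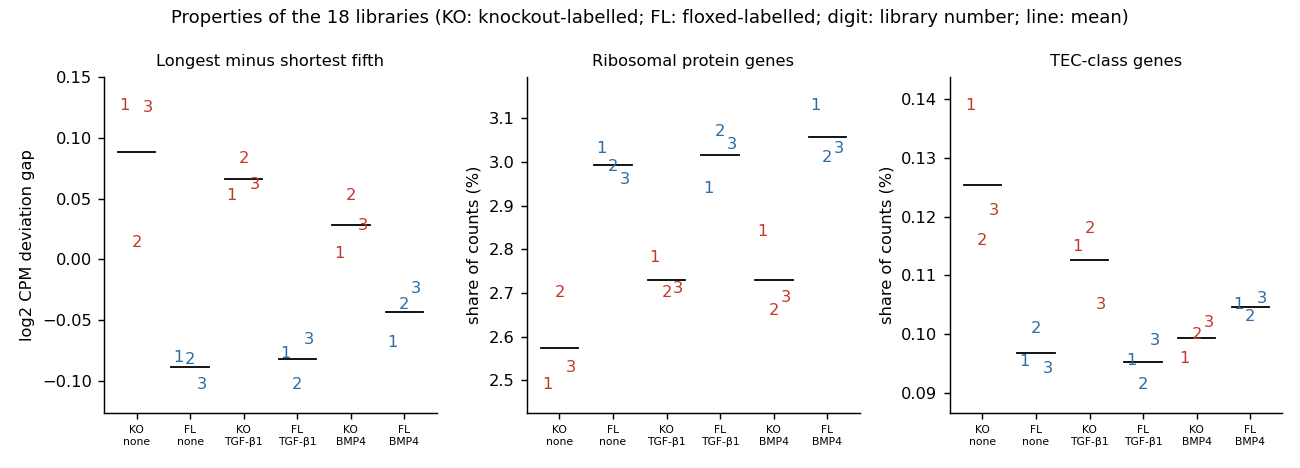
Each digit is 1 library and each line the mean of 3: the gap in log2 CPM deviation between the longest and the shortest length bin (left), the percent of counts in ribosomal protein genes (middle) and the percent in TEC-class genes (right), for knockout-labelled (KO, red) and floxed-labelled (FL, blue) libraries by treatment. In the untreated libraries the length gap is 0.01 to 0.13 in KO and -0.10 to -0.08 in FL.

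Taking account of length left fewer calls. When a smooth trend over length was taken out of each library by an offset, 117 protein-coding genes were called (0.972%), 43 higher and 74 lower, and 115 of them were among the 273. The longest bin then held 21 genes called higher and the shortest bin 39 called lower. Spearman's rho between length and difference was still 0.221, so the offset removed only part of the trend. When the TEC share of each library was added to the fit as a covariate, 0 genes were called by edgeR. How much of any gene's difference goes with these library properties was not tested.

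Among the individual genes, Zbtb20 had the lowest edgeR adjusted p. Zbtb20 (ENSMUSG00000022708, GRCm38 chr16:42875881-43642602, plus strand) codes for a zinc finger transcriptional repressor. Its level was 119, 108 and 123 CPM in knockout-labelled libraries against 84.8, 80.3 and 81.6 CPM in floxed-labelled ones. The groups lay far apart, at 1.42-fold (log2 0.50, SE 0.05, edgeR adjusted p = 0.000289), and the call remained without any 1 of the untreated libraries (edgeR adjusted p up to 0.00479). Its exonic length of 30730 bases puts it in the longest bin, and with length offsets its edgeR adjusted p was 0.00167.

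A pair of genes for microtubule proteins came next. Nav1, a neuron navigator protein that binds microtubule ends, was at 281, 264 and 278 CPM against 210, 216 and 218 CPM (log2 0.35, SE 0.04, edgeR adjusted p = 0.000854). Kif21b, a kinesin motor, was at 121, 118 and 121 CPM against 94, 95.6 and 99.5 CPM (log2 0.32, SE 0.04, edgeR adjusted p = 0.00225). In both the lowest knockout-labelled library stood well above the highest floxed-labelled one, and both calls remained without any 1 library. Dst, which codes for the cytoskeletal linker dystonin, and Tnrc6b, a partner of Argonaute in silencing by microRNAs, were also among the 10 genes with the lowest adjusted p, with log2 differences of 0.36 and 0.31. Their calls were lost without 1 library: Dst without knockout-labelled library 3 (edgeR adjusted p = 0.0519) and Tnrc6b without knockout-labelled library 1 (0.0538).

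Among the falls the lowest adjusted p was that of Gsta3, a glutathione S-transferase that conjugates electrophiles. Its level was 32, 34.3 and 34.9 CPM in knockout-labelled libraries against 58.4, 48.1 and 58.4 CPM. The groups did not overlap, with a log2 difference of -0.71 (SE 0.10, edgeR adjusted p = 0.00291) that was called without any 1 library. Cpsf6, a subunit of cleavage factor Im, which helps to choose the polyadenylation site, was at 91.6, 83.6 and 91.6 CPM against 113, 120 and 111 CPM (log2 -0.37, SE 0.05, edgeR adjusted p = 0.00399). Pdrg1 was at 44.6, 46.1 and 42.9 CPM against 55.9, 53.8 and 57.8 CPM (log2 -0.33, SE 0.05, edgeR adjusted p = 0.00678). Both falls were also called without any 1 library. The 9 genes with that property were these 3, Zbtb20, Nav1, Kif21b, 1810037I17Rik, Foxp3 and the ATP synthase gene Atp5j2, the last of which was named after its values were seen.

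**Figure D3:**
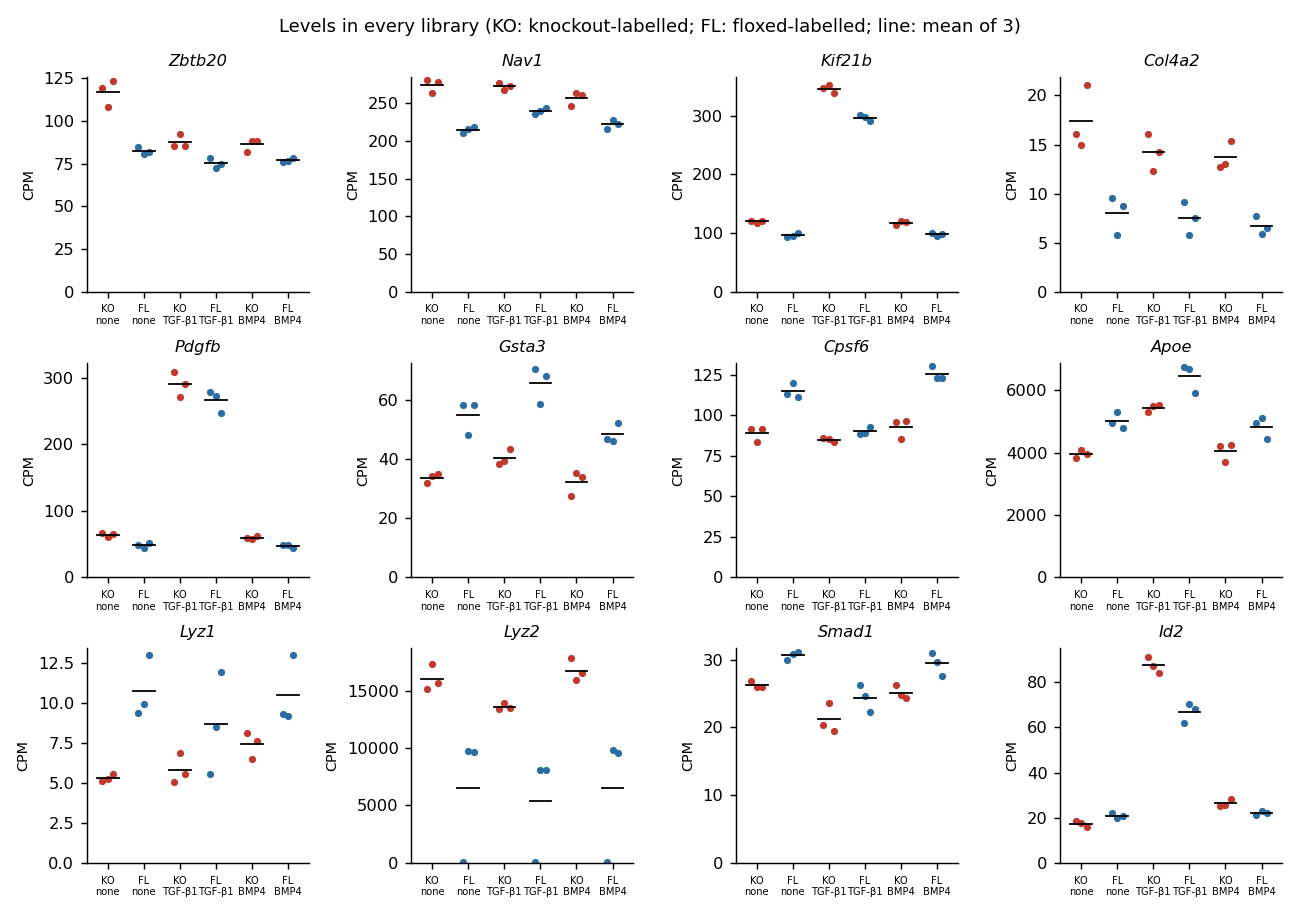
Level in CPM (vertical, from 0) of 12 genes in each of the 18 libraries, knockout-labelled (KO, red) and floxed-labelled (FL, blue) by treatment, with the mean of 3 as a line. Untreated values do not overlap between labels in any of the 12 panels, and Lyz2 in floxed-labelled library 1 (62.1 CPM) stands apart from the other floxed-labelled libraries.

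Some of the largest fold changes were in genes of low level. Foxp3, the defining transcription factor of regulatory T cells, was at 2.6, 2.14 and 2.14 CPM against 0.728, 0.755 and 0.904 CPM, where 3 counts in an untreated library correspond to 0.13 to 0.188 CPM. The log2 difference was 1.52 (SE 0.25, edgeR adjusted p = 0.00678), but other genes, Flicr and Ccdc22 among them, cover 31.5% of its exonic bases. The sources do not say whether counting used strand, so reads of Foxp3 and of the genes that overlap it cannot be told apart. Rflna, a regulator of filamins, was at 1.45, 0.549 and 1.51 CPM against 0.214, 0.0472 and 0.0532 CPM, which puts 2 of the 3 floxed-labelled libraries under the limit of 3 counts. Ephb6, an Eph receptor without kinase activity, was at 4.96, 11.1 and 5.34 CPM against 1.71, 2.74 and 1.75 CPM (log2 1.78, SE 0.44, edgeR adjusted p = 0.0389). Its knockout-labelled library 2 stood apart, as the libraries of that number did with TGF-β1 (7.02 CPM) and BMP4 (10.3 CPM). The Ephb6 call was lost in every fit that left out 1 untreated library (edgeR adjusted p 0.0572 to 0.133).

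Of 23 tested Smads and receptors of the TGF-β family, 1 was called (4.35%, against 2.27% of all genes). Bmpr2, the type II BMP receptor, was at 131, 135 and 136 CPM in knockout-labelled libraries against 115, 116 and 113 CPM. Its log2 difference of 0.22 (SE 0.06, edgeR adjusted p = 0.0444) was not called when any 1 untreated library was left out (edgeR adjusted p 0.075 to 0.146). The median of the 23 was 0.09, against -0.01 over all genes. Smad5, which acts beside Smad1, was at 32.8, 28.9 and 32.2 CPM against 32.3, 31.3 and 30.6 CPM, with overlapping groups (log2 -0.01, SE 0.07, edgeR adjusted p = 0.982). Smad9, the remaining BMP Smad, was not tested and had 0.0604 CPM in knockout-labelled library 1 and 0 in the others. Smad4, the partner of all receptor Smads, was at 64, 72.7 and 75.5 CPM against 65.2, 65 and 63.8 CPM (log2 0.13, SE 0.06, edgeR adjusted p = 0.234).

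None of the 11 tested BMP and Smad1/5 targets was called, against 2.27% of all genes, and their median log2 difference was -0.14. Id2, an inhibitor of basic helix-loop-helix factors, was at 18.6, 17.6 and 16 CPM against 22.2, 19.7 and 20.9 CPM. Those groups did not overlap, but the difference of -0.27 (SE 0.08) missed the threshold at an edgeR adjusted p of 0.0648. Id3 was near 1 CPM in both labels (1.63, 1.1 and 0.943 against 0.814, 1.46 and 1.06 CPM). Id1 was at 0.181, 0.183 and 0.314 CPM against 0.0857, 0.189 and 0.213 CPM, close to the limit of 3 counts. The inhibitory Smads were low as well, with Smad7 at 4.9, 4.45 and 5.66 CPM against 3.81, 4.86 and 4.89 CPM and Smad6 between 0.343 and 1.63 CPM in all untreated libraries. The label difference of Id3 was 0.15 (SE 0.75, edgeR adjusted p = 0.947) and that of Smad6 0.41 (SE 0.48, edgeR adjusted p = 0.722), so both SEs were wide.

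Targets of the TGF-β branch and the ligands gave no call either. None of 22 TGF-β and Smad3 targets was called (median 0.06), and none of 10 ligands and latency genes (median 0.16), against 2.27% of all genes. At that share, lists of this size would hold few or no calls. Tgfb1 was at 275, 275 and 281 CPM against 244, 254 and 246 CPM, which did not overlap, at a log2 difference of 0.16 (SE 0.05, edgeR adjusted p = 0.0827). At an unadjusted p under 0.05 Tgfb1 and Id2 would pass, as would 2116 genes in all.

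Letters bound by Smads were counted in promoter windows of 250 bases before to 50 after the start, from RefSeq on GRCm38.p6, which exist here for 221 of the 273 genes. GGCGCC, a GC-rich element, reads the same on both strands and was in 31.9% of 91 windows of genes called higher, 20.8% of 130 windows of genes called lower and 23.6% of 9522 windows of all genes tested. The palindrome GTCTAGAC was in 0 of 91, in 1 of 130 (0.769%) and in 29 of 9522 (0.305%). These matches describe letters and are not sites.

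Genes of protein synthesis and energy metabolism held many of the falls. Of 81 tested cytosolic ribosomal protein genes, the parts of the ribosome, 27 (33.3%) were called lower and 0 higher, against 1.31% of all genes. Their median log2 difference was -0.20 and 80 of the 81 values were negative. A family of 101 genes for respiratory chain and ATP synthase subunits had 15 called lower (14.9%), 93 negative values and a median of -0.17. Of 39 proteasome subunits 4 were called lower, of 77 mitochondrial ribosomal proteins 3, and none of either was called higher. These 4 families were gathered by symbol after values were seen, so their shares are not a test. Their median exonic lengths of 1770, 1756, 2800 and 2255 bases lie in the range where the median of all genes was also below 0. In the shortest bin 3.95% of genes were called lower.

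Rps18 showed the largest fall of a named ribosomal gene. It was at 292, 272 and 362 CPM in knockout-labelled libraries against 456, 443 and 443 CPM (log2 -0.53, SE 0.12, edgeR adjusted p = 0.0312). Knockout-labelled library 3 of Rps18 was also the highest with TGF-β1 (289, 278 and 404 CPM) and with BMP4 (285, 260 and 347 CPM). H2-K1, nearby on chromosome 17, had the same order of knockout-labelled libraries (2510, 1780 and 2800 CPM untreated), and a cause was not tested. Rpl18 was at 342, 398 and 346 CPM against 447, 468 and 438 CPM (log2 -0.32, SE 0.06, edgeR adjusted p = 0.0135). Rps6, a target of the mTOR pathway's S6 kinase, was at 370, 421 and 391 CPM against 492, 486 and 454 CPM (log2 -0.28, SE 0.05, edgeR adjusted p = 0.0139). The groups did not overlap in any of the 3 genes, and in Rpl18 and Rps6 knockout-labelled library 2 was the nearest to the floxed-labelled range. With length offsets 9 of the 81 were called. Without knockout-labelled library 1, and likewise without the floxed-labelled libraries numbered 1, 0 of the 81 were called, and reads shared with ribosomal pseudogenes add uncertainty to each gene. The ribosomal share of counts, given above, moved with the label.

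Respiratory chain genes named after their values were seen showed the same size of difference. Cox5b, a subunit of cytochrome c oxidase, was at 80.9, 88.6 and 81.3 CPM against 103, 108 and 105 CPM (log2 -0.33, SE 0.06, edgeR adjusted p = 0.00954). Ndufa1, a subunit of complex I, was at 26.1, 29.2 and 27.2 CPM against 37.3, 36.7 and 32.9 CPM (log2 -0.38, SE 0.09, edgeR adjusted p = 0.0302). Neither gene's groups overlapped. Cox5b lost its call without knockout-labelled library 1 or 3 (edgeR adjusted p up to 0.0614), and Ndufa1 without any 1 library other than knockout-labelled library 2 and floxed-labelled library 3 (up to 0.145). All 23 heat shock and folding genes were negative (median -0.11), of which the co-chaperone gene Dnaja1 was called. Of 28 antioxidant genes 3 were called lower (10.7%, against 1.31% of all genes): Gsta3, the glutathione peroxidase gene Gpx1 (452, 519 and 458 against 616, 565 and 588 CPM) and the thioredoxin gene Txn1 (150, 143 and 156 against 175, 167 and 176 CPM). Gpx1 lost its call without knockout-labelled library 1 or 3 or floxed-labelled library 1 (edgeR adjusted p up to 0.0837). Dnaja1 lost its call without any 1 library other than knockout-labelled library 2 (up to 0.166). Txn1 lost its call without any 1 library other than floxed-labelled library 2 (up to 0.139).

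**Figure D4:**
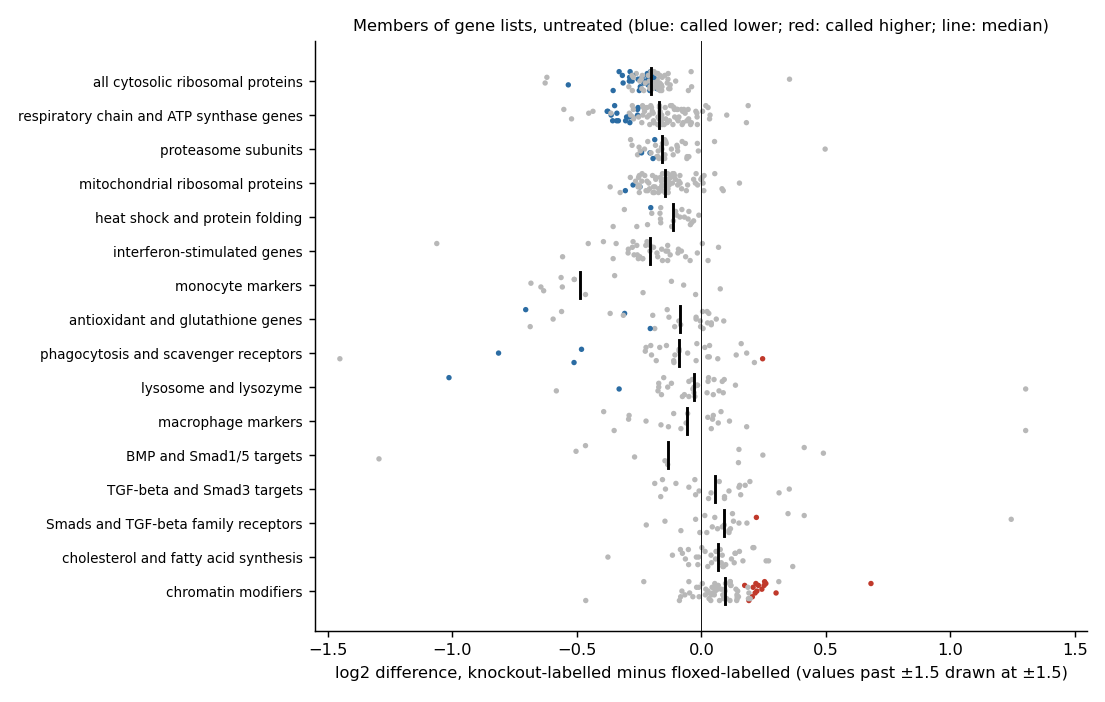
Log2 difference between knockout-labelled and floxed-labelled untreated libraries (horizontal) for the tested members of 16 gene lists (rows), 1 point per gene, blue where called lower, red where called higher and grey where not called, with the list median as a black line. Medians lie at -0.20 for cytosolic ribosomal proteins, -0.49 for monocyte markers and 0.10 for chromatin modifiers.

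Of 29 phagocytosis and scavenger receptors, by which macrophages recognise and take up material, 1 was called higher (3.45%, against 0.956% of all genes) and 3 lower (10.3%, against 1.31%). Scarb1, a receptor for high-density lipoprotein, was at 217, 221 and 234 CPM in knockout-labelled libraries against 190, 193 and 185 CPM (log2 0.25, SE 0.05, edgeR adjusted p = 0.0151). Clec4n, the dectin-2 receptor for fungal mannans, was at 120, 126 and 111 CPM against 156, 161 and 181 CPM (log2 -0.48, SE 0.09, edgeR adjusted p = 0.0146). Neither gene's groups overlapped. Fcgr2b, the inhibitory receptor for immunoglobulin G, was at 56.7, 60.5 and 52.1 CPM against 82, 88.8 and 70.5 CPM (log2 -0.51, SE 0.12, edgeR adjusted p = 0.0354). Itgax, the integrin CD11c, was low at 2.9, 2.2 and 1.76 CPM against 2.91, 4.77 and 4.47 CPM (log2 -0.81, SE 0.20, edgeR adjusted p = 0.0412). In Itgax the highest knockout-labelled value all but touched the lowest floxed-labelled one. Each of these 4 calls was lost without knockout-labelled library 1, without knockout-labelled library 3 and without at least 1 more library, with edgeR adjusted p up to 0.164 for Itgax, 0.133 for Fcgr2b, 0.09 for Scarb1 and 0.0837 for Clec4n.

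Of 19 chemokines and receptors outside the angiogenic and angiostatic lists 1 was called lower (5.26%, against 1.31% of all genes). Of 7 angiogenic and 4 angiostatic chemokines 0 were called, against 2.27% of all genes. Ccr1, the called gene, a receptor for inflammatory chemokines, was at 7.25, 4.45 and 6.66 CPM against 11.8, 10.3 and 11.6 CPM (log2 -0.88, SE 0.18, edgeR adjusted p = 0.0194). Single genes from other lists were called lower as well. Apoe, the lipid carrier apolipoprotein E, was at 3830, 4090 and 3970 CPM against 4940, 5310 and 4790 CPM (log2 -0.34, SE 0.07, edgeR adjusted p = 0.0158). Cst3, the protease inhibitor cystatin C, was at 940, 1110 and 946 CPM against 1280, 1260 and 1230 CPM (log2 -0.33, SE 0.06, edgeR adjusted p = 0.0111). All 3 genes were lower in every knockout-labelled library. Ifitm6, of the family of interferon-induced transmembrane proteins, was at 5.68, 5.92 and 4.96 CPM against 10.9, 10.7 and 12.2 CPM, one of the 2 falls of 2-fold or more (log2 -1.02, SE 0.19, edgeR adjusted p = 0.0111). The other was Lyz1. Tyrobp, the adaptor DAP12 of activating receptors, and Lgals1, galectin-1, named after their values were seen, fell by 0.24 and 0.30 on the log2 scale. Each was called in only 2 of the 6 fits without 1 untreated library (edgeR adjusted p up to 0.15 and 0.139). Apoe, Cst3 and Ifitm6 were not called without knockout-labelled library 1 or 3, and Ccr1 not without knockout-labelled library 3 or floxed-labelled library 1 or 3. Their edgeR adjusted p then reached 0.0851, 0.0765, 0.0692 and 0.0711.

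Over all genes tested 51.6% of the differences were negative and 2.27% of the genes were called, while 30 of the 39 lists had a negative median. Of 40 interferon-stimulated genes 0 were called while 37 were negative, with a median of -0.21, and their summed levels overlapped between labels (4720 to 4970 against 4550 to 6260 CPM). Of 14 tested monocyte markers 0 were called while 13 were negative, with a median of -0.49. Ccr2, the chemokine receptor of inflammatory monocytes, was at 427, 361 and 419 CPM against 543, 504 and 731 CPM, with no overlap but a wide floxed-labelled spread (log2 -0.56, SE 0.18, edgeR adjusted p = 0.0972). Neutrophil markers had 13 of 15 negative (median -0.31). The summed monocyte and neutrophil markers, given above, lay lower in most or all knockout-labelled libraries, and their part in these results was not tested. Inflammatory cytokines and receptors (0 of 28 called, median -0.10), alternative activation genes (0 of 20, median -0.01) and antigen presentation genes (0 of 19, median -0.19) gave no call. Proliferation genes gave none either, with 34 DNA replication genes at a median of 0.00 and 30 mitosis genes at -0.04. In all, 24 of the lists held no called gene. At the share of 2.27% over all genes, lists of this size would hold few or no calls. The absence of a call therefore says little about a list.

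Among genes that rose, a collagen pair stood beside long regulatory genes. Col4a2 and Col4a1 code for the α2 and α1 chains of type IV collagen, which join in the network of basement membranes. Col4a2 was at 16.1, 15 and 21.1 CPM in knockout-labelled libraries against 9.51, 5.76 and 8.77 CPM (log2 1.12, SE 0.19, edgeR adjusted p = 0.00696). Col4a1 was at 10.1, 7.38 and 10.6 CPM against 7.11, 3.92 and 4.31 CPM (log2 0.86, SE 0.20, edgeR adjusted p = 0.032). In both genes the groups stayed apart, though by little in Col4a1, whose knockout-labelled library 2 was near floxed-labelled library 1. They were the 2 called genes of 22 extracellular matrix genes tested (9.09%, against 0.956% of all genes called higher), and the median of that list was -0.14. Col4a2 lost its call without knockout-labelled library 3 (edgeR adjusted p = 0.053), and Col4a1 without knockout-labelled library 1 or 3 or floxed-labelled library 2 or 3 (up to 0.151).

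The promoter between these collagen genes is shown because both start inside it. Their annotated starts lie 21 bases apart on opposite strands, and their windows share 78 bases at chr8:11312777-11312854. The window of Col4a2 is printed from the plus strand of GRCm38.p6 at chr8:11312555-11312854, as given by RefSeq, and capitals mark the bases that are also in the Col4a1 window.
Col4a2: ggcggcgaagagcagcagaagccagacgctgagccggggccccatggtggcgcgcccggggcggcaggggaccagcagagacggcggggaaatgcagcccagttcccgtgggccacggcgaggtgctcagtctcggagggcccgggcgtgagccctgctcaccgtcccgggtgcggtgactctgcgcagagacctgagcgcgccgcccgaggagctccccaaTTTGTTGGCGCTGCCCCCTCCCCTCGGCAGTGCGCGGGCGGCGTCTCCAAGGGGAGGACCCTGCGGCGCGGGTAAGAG

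Pdgfb, the growth factor that recruits pericytes, was the 1 called gene of 16 angiogenic growth factors (6.25%, against 0.956% of all genes called higher). It was at 67.1, 60.7 and 64.5 CPM against 48.1, 44.5 and 51.6 CPM, with no overlap (log2 0.42, SE 0.07, edgeR adjusted p = 0.00696). The call was lost without knockout-labelled library 1 (edgeR adjusted p = 0.0614). With length offsets its edgeR adjusted p was 0.00703.

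A list of chromatin regulators, gathered after values were seen, held some of the rises. Of 67 tested genes of the Kmt, Arid, Kdm, Setd, Tet, Ncoa and Smarc families and a few related coactivators, 14 (20.9%) were called higher and 0 lower, against 0.956% of all genes called higher. Their median log2 difference was 0.10 and 55 values were positive. This list was gathered by symbol after values were seen, so its share is not a test. Its median exonic length was 9596 bases, in the range of the longest bin, where 3.41% of genes were called higher. With length offsets 4 of the 67 were called. Crebbp, a histone acetyltransferase, was at 96.2, 87.4 and 94.9 CPM against 72.2, 79 and 75 CPM (log2 0.30, SE 0.05, edgeR adjusted p = 0.00929). Kmt2d, a histone H3 lysine methyltransferase, was at 330, 315 and 302 CPM against 250, 272 and 274 CPM (log2 0.25, SE 0.06, edgeR adjusted p = 0.0348). Srcap, the ATPase that loads the histone variant H2A.Z, was at 18.7, 14.6 and 14.7 CPM against 9.76, 10.1 and 10.2 CPM (log2 0.68, SE 0.14, edgeR adjusted p = 0.0193). No group of these 3 genes overlapped. Other genes, 1 of them on the same strand, cover 65% of the exonic bases of Srcap, so its level is uncertain. H2afz, which codes for H2A.Z itself and is short, was lower at 244, 302 and 247 CPM against 350, 307 and 365 CPM (log2 -0.37, SE 0.08, edgeR adjusted p = 0.0296). Notch1 and Mtor were called higher as well, by 0.29 and 0.23 on the log2 scale. These genes were named after their values were seen. Kmt2d lost its call without any 1 library, and the other 5 without 2 to 5 of the 6.

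Lars2, the mitochondrial leucyl-tRNA synthetase, was the one gene over 100 CPM among the 11 that rose by 2-fold or more. It was at 1260, 1280 and 1330 CPM in knockout-labelled libraries against 390, 408 and 384 CPM, a 3.27-fold difference between 2 tight groups. Its spread was wide in the libraries given BMP4, where the knockout-labelled ones were at 2870, 898 and 491 CPM. Since 1 fit covers all 18 libraries, that spread enters the SE of 0.38 on the log2 difference of 1.71, and the edgeR adjusted p was 0.0287. The call was lost without any 1 untreated library other than knockout-labelled library 2 (edgeR adjusted p up to 0.105).

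Positions of the calls were set beside Lyz2 and Smad1. The 3 protein-coding genes tested within 0.1 Mb of the start of Lyz2, a window chosen after the values were seen, were Yeats4, Lyz1 and Cpsf6, and these were all called lower. Yeats4, a reader of acetylated histones, was at 48.7, 53.6 and 52.8 CPM against 61.4, 64.9 and 60.8 CPM (log2 -0.27, SE 0.06, edgeR adjusted p = 0.0287). Its call was lost without knockout-labelled library 1 or 3 or floxed-labelled library 1 or 2 (edgeR adjusted p up to 0.145). Within 10 Mb, 4 of 65 tested genes were called (6.15%), all lower, the last being Glipr1. Within 10 Mb of Smad1, 7 of 197 were called (3.55%), 2 of them higher, which were Ell and Rnf150, and 5 lower, with Ccdc124, Rab8a and Use1 among those. Over whole chromosomes the share ran from 1.24% to 3.71%, so the share around Smad1 lay inside that range.

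The libraries given a ligand show whether the same genes differ in cells of the same labels. They share no library with the untreated comparison, but libraries of 1 label with 1 number deviated together across treatments (correlation of deviations 0.17 to 0.391), so they are not independent of it. With TGF-β1, 49 protein-coding genes were called between the labels (0.407%), and with BMP4 4 were (0.0332%). Of the 273 untreated calls, 270 (98.9%) had the same sign with TGF-β1, against 69.7% of all genes, and 250 (91.6%) with BMP4, against 66.3%. The difference was smaller in size with TGF-β1 for 93% of the 273, and with BMP4 for 97.4%. The 273 genes were chosen on their untreated values. The length trend was there too, at Spearman's rho of 0.297 with TGF-β1 and 0.186 with BMP4.

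Of the untreated calls, 23 were also called with TGF-β1, which is 8.42% of the 273 and 46.9% of the 49. With BMP4 it was 3, which is 1.1% of the 273 and 75% of the 4. Kif21b and Gsta3 were called in all 3 comparisons. Kif21b differed by 0.32 untreated, 0.22 with TGF-β1 (edgeR adjusted p = 0.0306) and 0.27 with BMP4 (0.028) on the log2 scale. Gsta3 differed by -0.71, -0.70 (0.0114) and -0.59 (0.0358). Cpsf6 was lower untreated and with BMP4 (-0.44, edgeR adjusted p = 0.00189), and differed by -0.09 with TGF-β1 (0.529). The collagen gene Col4a2 was called untreated and with TGF-β1 (0.93, edgeR adjusted p = 0.0421) and differed by 1.03 with BMP4 (0.0773). Zbtb20, with the lowest adjusted p untreated, was called with neither ligand (0.22 with TGF-β1, edgeR adjusted p = 0.0761, and 0.16 with BMP4, 0.44). Nor was Foxp3 (0.70 with TGF-β1, edgeR adjusted p = 0.228, and -0.035 with BMP4, 0.987).

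**Figure D5:**
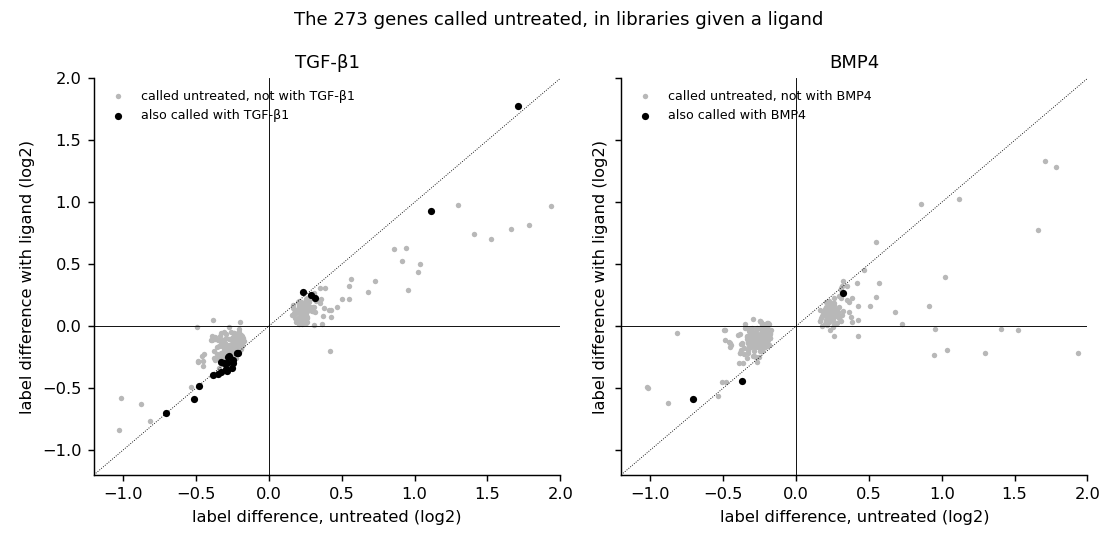
Label difference (log2, knockout-labelled minus floxed-labelled) with TGF-β1 (left, vertical) and with BMP4 (right, vertical) against the untreated difference (horizontal) for the 273 genes called untreated, with genes also called with the ligand in black and the dotted line at equal values. Most points lie on the same side of 0 as untreated and nearer to 0 than the dotted line, and Rflna (3.34 untreated) lies outside the plotted range.

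A test of the change in the label difference itself gave 1 call with TGF-β1 and 0 with BMP4 among all protein-coding genes by edgeR, with 355 and 534 at an unadjusted p under 0.05. The call was Id2. It was at 91.3, 87.1 and 84.2 CPM in knockout-labelled libraries given TGF-β1 against 61.8, 70.6 and 68.3 CPM in floxed-labelled ones, and so higher there (log2 0.39, SE 0.06, edgeR adjusted p = 0.0186). The untreated difference of -0.27 minus this one was -0.65 (edgeR adjusted p = 0.0433). Without knockout-labelled library 2 or 3, or floxed-labelled library 1 or 3, 0 of the named genes passed this test.

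In the authors' deposited table, 138 of 14942 protein-coding genes had an adjusted p under 0.05 for the same untreated comparison, 40 higher and 98 lower. Of the 273 genes called here, 95 were among those 138 in the authors' deposited table (34.8% and 68.8%), all with the same sign. Zbtb20, Nav1, Gsta3 and Cpsf6 were shared with it. Genes of lower level often have an adjusted p of 1 in the authors' deposited table whatever their p, such as Col4a2 (p = 1.51e-08), Lyz1 (2.45e-07) and Smad1 (0.0252), so these could not be called in it and the overlap is limited by that.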

How the data were processed

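Polyadenylated RNA of 18 libraries was analysed, 3 in each of 6 groups of genotype label and treatment. Per the submitters' processing notes, the authors used TopHat2 2.0.9, HTSeq 0.6.1 and Cufflinks 2.1.1 on paired reads of 150 bp with build mm10 (GRCm38.p6). The deposited read counts per gene, named so per the file headers, were used unchanged. A further 78 columns of per-sample values were not used. The log2 and adjusted p-value columns of the authors' deposited table served only for a count of shared calls. Whether counting used strand is not given in the sources used here, and 102 of the 273 called genes overlap an exon of another gene in GENCODE M21, in which 11503 of 12035 genes had identical coordinates. Totals were 15153296 to 24639163 counts per library.

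Counts were fitted in R 4.3.3 with edgeR 4.0.16: TMM factors (0.978 to 1.02), filterByExpr over the 6 groups (14684 of 54532 genes kept, 12035 of them protein-coding), and a quasi-likelihood fit of the 18 libraries in which each group has its own mean. Residual degrees of freedom were 12, with 6.41 from the prior, and the common biological variation was 8.86%. "edgeR adjusted p" is the 2-sided p of the F test with Benjamini-Hochberg adjustment over all 14684 genes, and the call threshold was 0.05. The scripts were tested on simulated data.

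Named genes are the 15 largest rises and falls among calls without overlap (predicted genes and means under 1 CPM in both groups left out), up to 4 called members per list and direction (or the 2 most abundant where none was called), 11 genes of the pathway and the Lyz2 locus, calls within 10 Mb of Lyz2 or Smad1, and the 10 lowest adjusted p. Not all are reported. Others are said to be named after their values were seen. The members and the 39 lists were chosen with earlier results of these data known, and 5 further lists by symbol after values were seen.

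Alternatives were RLE or total count scaling, DESeq2 1.42.0 with its Wald test, every gene with a count (29506), genes averaging 1 CPM or more (12234), the 6 untreated libraries alone, library number as an additive block or a random effect (limma 3.58.1), 15 libraries without the floxed-labelled ones numbered 1, the TEC share as a covariate, and each untreated library left out. Length offsets (loess, span 0.5, on log2 CPM), length offsets without those libraries, and a fit without the knockout-labelled libraries numbered 2 were added after seeing the data. Same-numbered libraries of the 2 labels did not deviate together (r -0.119 to 0.00988), so numbers do not pair them. Within a group, no 2 libraries were repeats (chi-square per degree of freedom 3.69 to 28.6).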

Additional observations from a re-analysis of the deposited data

Results flagged for a closer look

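The label difference of Id2, a target of BMP signalling, was below 0 without a ligand, where it missed the threshold (edgeR adjusted p = 0.0648), and above 0 with TGF-β1 (edgeR adjusted p = 0.0186). Untreated it was at 17.4 ± 1.34 CPM in knockout-labelled and 20.9 ± 1.25 CPM in floxed-labelled libraries (mean ± SD, n = 3), while with TGF-β1 all 3 knockout-labelled libraries were above all 3 floxed-labelled ones. The untreated difference minus the difference with TGF-β1 was -0.654 on the log2 scale (edgeR adjusted p = 0.0433, over all genes tested). The corresponding value against BMP4 was -0.53 (edgeR adjusted p = 0.121). In 10 of the 16 alternatives run for it no named gene passed this test, among them the fits without knockout-labelled library 2 or 3 or floxed-labelled library 1 or 3.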

How the results depend on the processing

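Calls changed with the processing, while signs mostly stayed. Of the 273 called genes, 271 to 273 were tested and kept their sign in each of 19 alternatives, and 0 were called in all of them. A gene that the filter of a fit left out is not counted as keeping its sign. Since all 273 lacked overlap between the labels, fits that leave out libraries could hardly change a sign. Fam196b changed sign with the TEC share as a covariate (-0.08, edgeR adjusted p = 0.999). Counts of protein-coding calls are given as all, higher and lower, against 273, 115 and 158. They were 647, 153 and 494 without a low-count filter, 351, 185 and 166 with a mean of at least 1 CPM, 448, 199 and 249 by DESeq2, 12, 4 and 8 with the 6 untreated libraries alone, and 0, 0 and 0 with the TEC share. Without the floxed-labelled libraries numbered 1 they were 27, 16 and 11, and without the knockout-labelled libraries numbered 2 they were 584, 183 and 401. Length offsets gave 117, 43 and 74, and 8, 6 and 2 when the floxed-labelled libraries numbered 1 were left out as well. With 1 untreated library left out they ran from 15 to 516, 8 to 154 and 7 to 362. RLE and total count scaling gave 278 and 326 calls. The replicate block gave 349 as an additive term, though the library numbers do not pair the labels. As a random effect within label it gave 283, of which 250 were among the 273. That fit allows for libraries of 1 label and number deviating together (consensus correlation 0.182), which the main fit does not.

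The 23 calls shared with TGF-β1 became 10 with RLE, 179 without a filter, 79 by DESeq2, 39 with the additive replicate block, 2 without the floxed-labelled libraries numbered 1, 0 with the TEC share, 5 with length offsets and 3 with length offsets without those libraries, and 3 to 52 with 1 library left out. The 3 shared with BMP4 became 1 with total count scaling, 140 without a filter, 20 by DESeq2, 6 with either replicate block, 0 with the TEC share, 10 without the knockout-labelled libraries numbered 2, and 1 to 5 with 1 library left out. The 1 interaction call among named genes (Id2) became 4 without a filter, 0 with total count scaling, the additive replicate block, the TEC share, either fit without the floxed-labelled libraries numbered 1 or the fit without the knockout-labelled libraries numbered 2, and 0 to 1 with 1 library left out. The cause of these shifts was not tested, apart from the fewer libraries in some fits. Depth limits genes near 3 counts, 0.13 to 0.188 CPM in untreated libraries.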
